A study of Mus musculus with 2 samples.

Results

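The glutathione S-transferases (GST), UDP-glucuronosyltransferases (UGT) and sulfotransferases (SULT) of mouse liver are described here in 1 wild-type library and 1 library of liver with a Snail transgene. They were taken by gene name, as every name in the array annotation that begins with Gst, Mgst, Ugt1 to Ugt3 or Sult followed by a class letter or number. The rule found 49 genes on 70 probes, of 31827 gene names on the array. Of these, 24 were GST genes, 13 UGT genes and 12 SULT genes.

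The GST enzymes join glutathione to electrophiles, and some use it to reduce peroxides. The UGT enzymes join glucuronic acid to phenols, bilirubin, steroids and bile acids, and the SULT enzymes transfer sulfate to phenols, steroids and amines. Each family draws on its own cofactor: glutathione, UDP-glucuronic acid and PAPS (3′-phosphoadenosine 5′-phosphosulfate). In hepatocytes these steps make drugs, hormones and products of lipid peroxidation soluble for export into bile or blood, and the genes are known targets of the regulators NRF2, PXR, CAR and AHR.

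Total RNA of liver from C57BL/6 mice was labelled with the dye Cy3 and read on 1-colour Agilent arrays of 60-base probes. The wild-type group had 1 array. The other group also had 1 array, of the genotype Alb-Cre;CAG-floxed neo-Snail, in which Cre under the albumin promoter, active in hepatocytes, acts on a floxed transgene for the transcription factor Snail. The series title speaks of steatohepatitis and liver tumorigenesis under enforced Snail expression; the labels give neither sex, age and diet nor whether the piece of liver held a tumour, nor how many animals gave the RNA.

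With 1 array per group there were no replicates, so no difference below has a test, and a log2 difference always means the second library minus wild-type. Processed signals quoted are before scaling, and the differences are after dividing by each array's 75th percentile, which was 232.7 for wild-type and 302.1 for the other array. The spread between spots of the same probe gives technical noise: the SD of the log2 difference had a median of 0.19 for signals under 100, 0.07 from 100 to 1000 and 0.04 above 1000. It holds no difference between animals. A gene was called measured when a probe was well above background on both arrays, and counted as different at 2-fold or more.

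The Snai1 probe gave signals of 23.2 in wild-type and 22.3 in the other library, a log2 difference of -0.44, so these data hold no check of the labels, and the array of transgenic liver is named below only by its label. Where that probe lies relative to the transgene was not analysed here. Of 18 hepatocyte markers fixed for the check of the tissue, 17 were on the array and all 17 were measured in both libraries, with a median log2 difference of -0.65 and a summed scaled signal of 6387 in wild-type and 4243 in the Snail-labelled library. Of the 17, 0 were at least 2-fold higher and 4 (23.5%) lower: Apoa1 at -3.04, Arg1 at -1.90, Tat at -1.33 and Cyp2e1 at -1.27. Albumin (Alb) differed by -0.63. Over all measured genes the shares were 3.97% and 6.34%. Among 11 bile duct markers 4 were measured, and the keratins Krt7 and Krt19 and Epcam were below background on both arrays. In whole liver, fewer cells of a type and less RNA per cell cannot be told apart. Among 10 endothelial markers all 10 were measured, with a median of 0.06, and the macrophage list had 10 of 11 with a median of 0.14. The stellate cell and fibroblast list had 9 of 11 measured, with 1 at least 2-fold higher and 2 lower, a median of -0.76, and a summed scaled signal of 54.8 in wild-type and 30.8 in the Snail-labelled library. Most of that sum came from Dcn, with signals of 11549 and 7804. Col1a1 at 1.32 was the higher gene, and Lum at -1.62 and Lrat at -1.01 were the lower ones. Acta2 passed the background call only in the Snail-labelled library. The neutrophil list had 6 of 9 measured and a median of 0.51, with S100a8 at 1.99 and S100a9 at 1.57, and a summed scaled signal of 76.3 in wild-type and 81.0 in the Snail-labelled library. Most of that sum came from Csf3r, with signals of 16984 and 22311 and a difference of 0.02. The part of any cell type in the values below was not tested.

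The alpha-class GST gene Gsta1 had the largest difference among the 43 genes measured on both arrays, and its probe is a near copy of the probe of its neighbour Gsta2, which was also higher. Over an overlap of 50 bases the 2 probes differed at 4 bases, an identity of 92%. Each window below is 30 bases of a probe, 5′ to 3′, and the capitals mark the bases that differ.
Gsta1: tggcctctaatGgtttgcaattataaaaAG
Gsta2: tggcctctaatTgtttgcaattataaaaTA

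On the mm9 build that the files use, the whole Gsta1 probe lies at chr9:78090411-78090470 on the plus strand and the Gsta2 probe at chr9:78178856-78178915 on the minus strand. Cross-hybridization between them was not tested, and the 2 genes' values are therefore uncertain as separate values. Of 2415 pairs of the 70 probes, only 1 other pair, of Ugt2b37 and Ugt2b5, shared at least 80% of bases over 40 or more; these differed at 9 of 55 bases. The files do not say whether a probe lies in an exon or a UTR.

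The 250 bases before the start of Gsta1, Gsta2 and Gsta3 are shown because the first pair was far higher in the Snail-labelled library and the third was not. They come from RefSeq on the build GRCm38.p6, at chr9:78230419-78230668 (plus strand), chr9:78347146-78347395 (minus strand) and chr1:21240335-21240584 (plus strand). Capitals in Gsta1 and Gsta2 mark the longest run of bases that both share, 29 bases from position -118 in Gsta1 and -121 in Gsta2. In Gsta3 they mark the match at position -121 to TGACNNNGC, the core of the antioxidant response element that NRF2 is known to bind.
Gsta1: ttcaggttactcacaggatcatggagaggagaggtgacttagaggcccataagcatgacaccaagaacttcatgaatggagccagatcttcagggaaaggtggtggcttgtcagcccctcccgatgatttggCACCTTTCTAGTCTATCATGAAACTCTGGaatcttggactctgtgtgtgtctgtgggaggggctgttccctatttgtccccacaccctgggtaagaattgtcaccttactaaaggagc
Gsta2: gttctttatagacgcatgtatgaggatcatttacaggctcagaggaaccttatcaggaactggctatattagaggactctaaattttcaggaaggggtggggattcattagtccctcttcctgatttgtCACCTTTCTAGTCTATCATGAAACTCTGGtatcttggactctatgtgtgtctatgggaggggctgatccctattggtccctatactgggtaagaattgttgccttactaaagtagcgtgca
Gsta3: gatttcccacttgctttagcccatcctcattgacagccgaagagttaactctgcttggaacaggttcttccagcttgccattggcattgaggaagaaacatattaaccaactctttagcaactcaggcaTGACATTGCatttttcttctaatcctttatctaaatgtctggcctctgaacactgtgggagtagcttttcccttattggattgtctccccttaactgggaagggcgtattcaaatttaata

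Aligned over these windows, Gsta1 and Gsta2 were identical at 70.5% of columns, against 50.7% for Gsta1 with Gsta3 and 50.5% for Gsta2 with Gsta3. Both strands of the 250 bases were searched for TGACNNNGC. Of the 49 genes 44 had a promoter entry, and 4 held a match: Gsta3, Gstm5, Gstm7 and Mgst1. By promoter, 7.27% of the 55 entries of these genes held it, against 10.2% of all 32851 entries. GCGTG, the core that AHR is known to bind, occurred in 9 of the 55 entries (16.4%) and in 28.2% of all. The windows do not reach further upstream, and Gsta4 had no entry.

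Of the 49 genes, 43 were measured on both arrays. Among these 43, 6 were higher by 2-fold or more in the Snail-labelled library and 9 were lower by that much, while 28 stayed within 2-fold. Over all 15448 measured genes, 3.97% were this much higher and 6.34% this much lower, together 10.3%, and the shares among the 43 were 13.95% and 20.9%. Of the 17 hepatocyte markers 0 were this much higher and 23.5% this much lower, and a link between the 2 sets was not tested. The median log2 difference was -0.23 for the 43 and -0.03 for all genes. With no filter on dim probes this order turned, at -0.25 for the 49 and -0.54 for all genes. In that setting each dim signal was raised to its array's lowest signal well above background. Genes dim on both arrays thus all got the same fixed difference, -0.54, which is the median of all genes there. The turned order therefore does not describe expression. With quantile normalization the split became 9 higher and 9 lower. A further 2 genes, Mgst2 and Ugt2a1, passed the background call only in the Snail-labelled library, and 4 (Gstt4, Sult1c1, Sult2b1 and Sult6b1) were below background on both arrays.

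**Figure D1:**
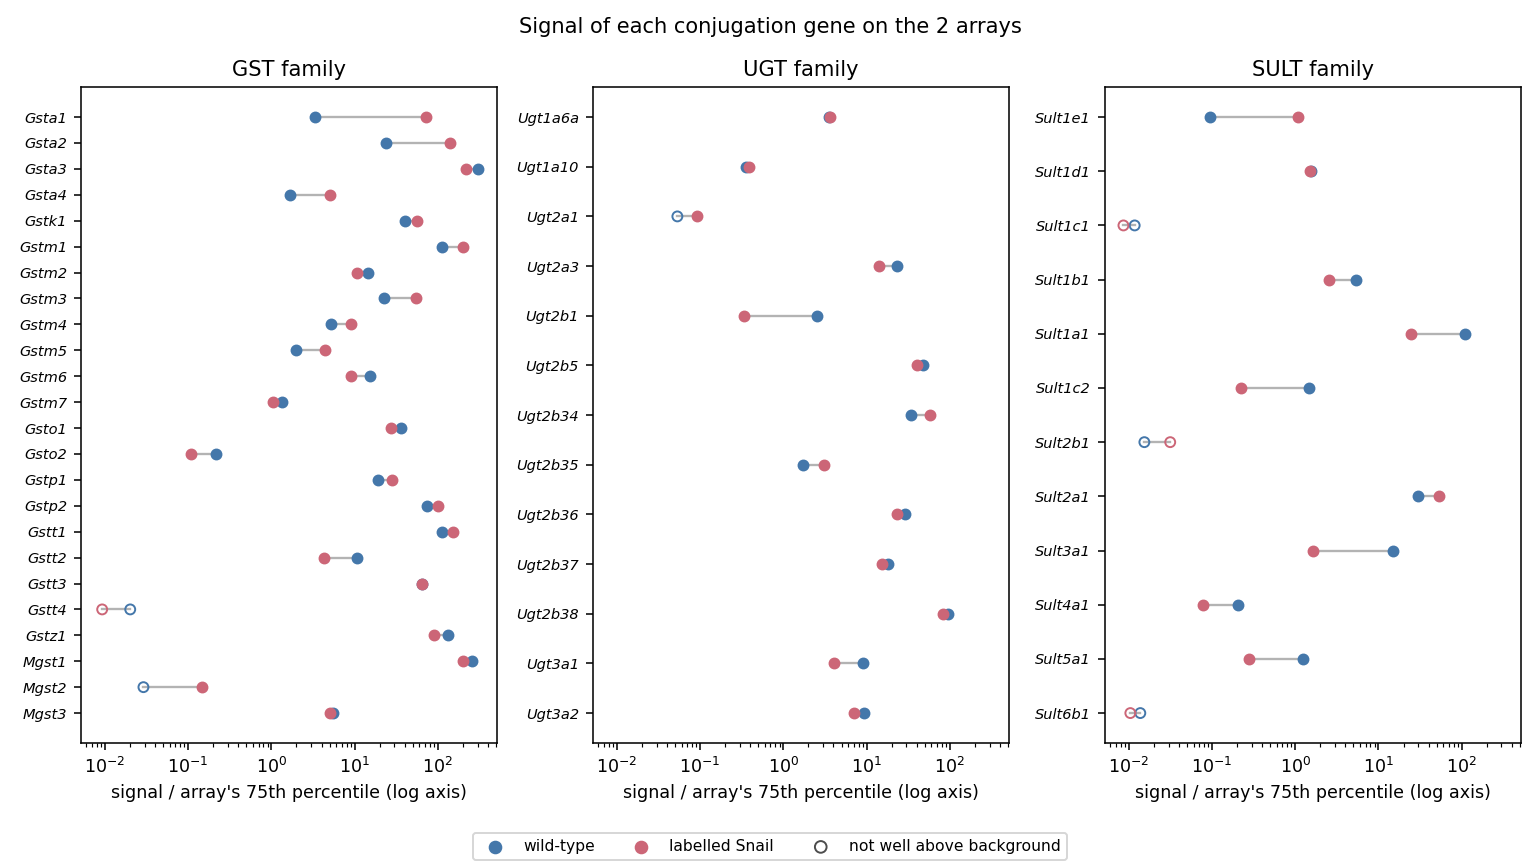
Signal of each of the 49 genes on the wild-type array (blue) and on the array labelled Snail (red), as a multiple of the array's 75th percentile on a log axis, with open circles where the signal was not well above background. Gsta1 and Sult1e1 show the widest gaps to the right and Sult3a1 the widest to the left; levels of different genes come from different probes and are not comparable.

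The medians of the families lay on different sides of 0. Among 22 measured GST genes, 5 (22.7%) passed 2-fold upward and 1 (4.55%) downward, with a median of 0.22. UGT genes had 0 of 12 higher and 2 (16.7%) lower, with a median of -0.24. SULT genes had 1 of 9 (11.1%) higher and 6 (66.7%) lower, with a median of -1.38. Over all genes 3.97% were higher and 6.34% lower, so 0 UGT genes higher and 1 GST gene lower are near the shares of all genes. Each family's median kept its sign under all 10 alternative settings, although the UGT median came to -0.0036 after normexp with quantile normalization and the GST median to 0.0084 with names taken from RefSeq. Relative to all genes, the UGT median turned to 0.31 with no filter on dim probes, where the median of all genes is the fixed value described above. The difference between families has no test.

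**Figure D2:**
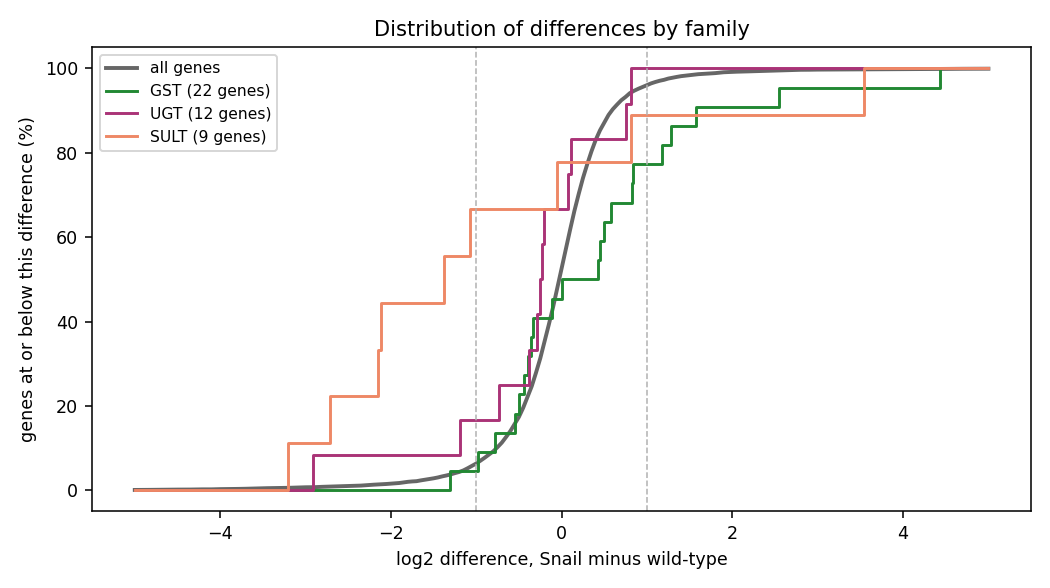
Share of genes at or below each log2 difference (Snail minus wild-type, x axis) for all 15448 measured genes (grey), 22 GST, 12 UGT and 9 SULT genes; dashed lines mark 2-fold. The SULT curve lies left of the curve of all genes up to its 6 genes at least 2-fold lower, and the GST curve lies right of it over the 5 genes at least 2-fold higher.

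Gsta1 had signals of 773 in wild-type and 21588 in the Snail-labelled library, a log2 difference of 4.43 (21.5-fold). Its enzyme is an alpha-class GST that conjugates electrophiles and reduces lipid peroxides. Gsta2, the closely related gene next to it, had signals of 5517 and 41756, a difference of 2.54 (5.83-fold). Gsta4, whose enzyme is known for its activity on the lipid peroxidation product 4-hydroxynonenal, had 391 and 1514, a difference of 1.57. Its 9 usable spots had an SD of 0.10 on that difference, so the gap was well outside the noise within the arrays. All 3 genes were higher in the Snail-labelled library under each of the 10 settings. Gsta3, the alpha-class gene on chromosome 1, went the other way by a small amount. One of its probes gave 89384 and 85001 and the other 56720 and 50497, and the gene's log2 difference was -0.50.

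The mu-class genes lie together on chromosome 3, and within 146 kb they split into a higher and a lower group. Gstm3 was 2.44-fold higher, with signals of 6152 and 23617 on one probe and 4427 and 11548 on the other. Gstm5, known mainly from brain and testis, was 2.26-fold higher, with 459 and 1347. Gstm1 and Gstm4 leaned the same way without reaching 2-fold as genes. The Gstm1 probe on chromosome 3 gave 13695 and 36353, a difference of 1.03, and a second probe, which the files place on chromosome 5, gave 48683 and 98417, a difference of 0.64. For Gstm4 the probes differed by 0.47 (705 and 1271) and 1.17 (2045 and 5977), the widest gap between probes that were not counted as disagreeing.

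On the lower side of the mu class were Gstm2, Gstm6 and Gstm7, each with several probes that agreed in direction. Gstm6 had 3 probes at -0.84, -0.85 and -0.66, with signals of 9453 and 6873, 5121 and 3694, and 963 and 792. Gstm2 had 3 probes between -0.46 and -0.42. Gstm7 had a difference of -0.33, and its probe with 9 usable spots gave -0.40 with an SD of 0.06. These 3 genes were lower under all 10 settings, and none reached 2-fold.

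**Figure D3:**
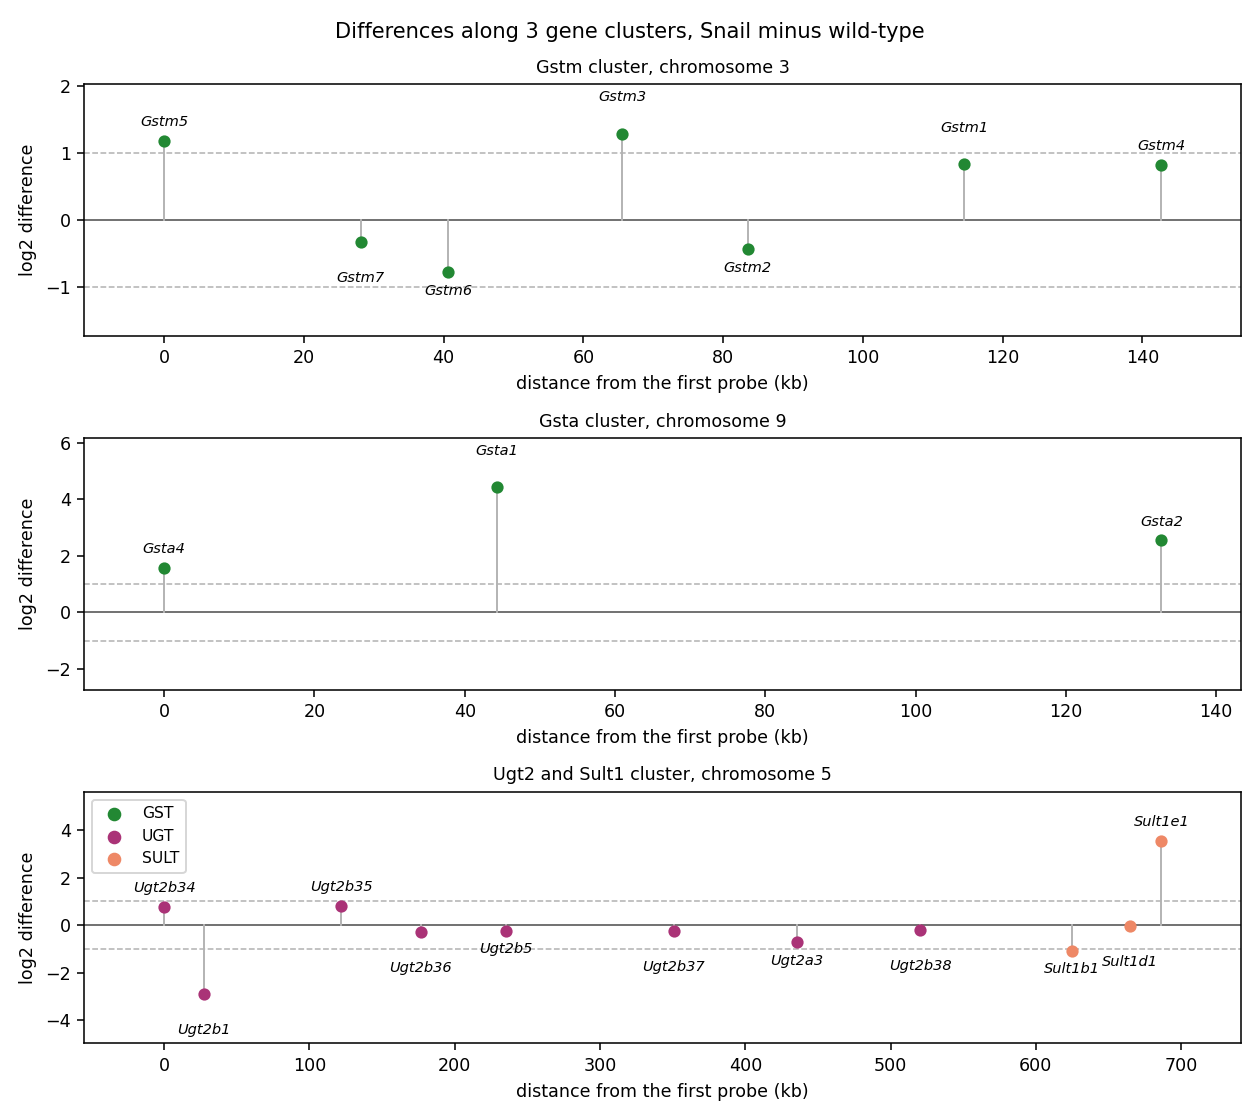
Log2 difference (Snail minus wild-type) of each measured gene against the distance in kb from the first probe of its cluster, for the mu-class GST genes, the alpha-class GST genes of chromosome 9, and the Ugt2 and Sult1 genes of chromosome 5; dashed lines mark 2-fold. Genes above and below 0 are interspersed along chromosomes 3 and 5, and the 3 genes on chromosome 9 are all higher.

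In the pi class, whose enzymes conjugate many electrophiles, Gstp1 differed by 0.57 and Gstp2 by 0.43. One of the Gstp1 probes also lists a Gstp2 accession, so the pair cannot be fully separated. The theta class, known for its action on halogenated alkanes, was mixed. Gstt2 gave 2475 and 1295, 2.48-fold lower, the only GST gene taken by the name rule that was at least 2-fold lower with this scaling. With median scaling, quantile normalization or the authors' value table there were 2. Gstt1 differed by 0.45, with 25805 and 45746, and Gstt3 by 0.01, with 14853 and 19400.

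The other cytosolic and organelle GST genes stayed within 2-fold. Gsto1 and Gsto2, omega-class enzymes that reduce dehydroascorbate, differed by -0.40 and -0.98; Gsto2 was dim, with 50.04 and 32.9, and was the gene nearest to the 2-fold line among those not past it. Gstz1, the maleylacetoacetate isomerase of tyrosine breakdown, differed by -0.55, and Gstk1, the kappa-class enzyme of mitochondria and peroxisomes, by 0.50. Of the membrane-bound enzymes, Mgst1 differed by -0.36 and Mgst3 by -0.11. Mgst2, which can make leukotriene C4, was not well above background in wild-type (6.75) and gave 44.0 in the Snail-labelled library, at least 2.45-fold higher.

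Among the UGT genes, 10 of the 12 measured ones stayed within 2-fold. The Ugt1a genes are known to join different start exons to a shared 3′ end, so a probe in the shared part reads several of them. The brightest of the 3 Ugt1a6a probes gave 57712 and 70978, a difference of -0.08. It lists accessions of Ugt1a6b, Ugt1a7c and Ugt1a10 as well. A dim probe with 37.4 and 49.6 gave 0.03 and lists accessions of the same genes. The remaining probe gave 0.26 and also lists Ugt1a6b. For Ugt1a10, adjacent probes disagreed. The one at chr1:89952720-89952779 gave 18.7 and 16.2, a difference of -0.58, and the one at chr1:89952780-89952839, which also lists Ugt1a9, gave 375 and 848, a difference of 0.80. It was the only one of 17 genes with several measured probes whose probes spanned more than 1 on the log2 scale.

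Ugt2b1, whose enzyme glucuronidates steroids and other substrates, was 7.53-fold lower in the Snail-labelled library, with signals of 595 and 103. Its neighbours on chromosome 5 did not share that difference. Ugt2b34 gave 8054 and 17706, a difference of 0.76, and both Ugt2b35 probes were higher, by 0.79 (885 and 1988) and 0.85 (186 and 434). Ugt2b5, Ugt2b36, Ugt2b37 and Ugt2b38 lay between -0.29 and -0.21. With quantile normalization Ugt2b5 came to 0.02 and Ugt2b38 to 0.10, so for these 2 genes the direction depends on the scaling. The Ugt2b36 probe also lists a Ugt2b37 accession.

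Ugt2a3, which acts on bile acids, differed by -0.73, with 5406 and 4236. Ugt2a1, known from olfactory tissue, gave 12.4 in wild-type, not well above background, and 27.7 in the Snail-labelled library, at least 1.55-fold higher. Its probe also lists Ugt2a2. Ugt3a1, an enzyme known to use UDP-N-acetylglucosamine, was 2.29-fold lower with 2133 and 1212, and Ugt3a2 differed by -0.38.

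The SULT family held the largest negative differences together with Ugt2b1. Sult3a1, an amine sulfotransferase, had signals of 3455 in wild-type and 487 in the Snail-labelled library, a difference of -3.20 (9.21-fold lower). Sult1c2 was 6.55-fold lower, with 344 and 68.1. Sult1a1, the main phenol sulfotransferase, was 4.45-fold lower; its overlapping probes on chromosome 7 gave 29142 and 8422, and 21857 and 6451. The agreement of the Sult1a1 probes was close, at -2.17 and -2.14, and both signals stayed far above background.

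Sult5a1 was 4.34-fold lower, with 284 and 85.1. Sult1b1, known to sulfate thyroid hormones, was 2.11-fold lower, with 1235 and 760, the gene just inside the 2-fold line on the lower side. Sult4a1, known from brain, was 2.60-fold lower on a dim probe, with 47.7 and 23.8, while its second probe was below background on both arrays. Sult1d1, which acts on catecholamines, differed by -0.05 over 2 probes.

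Sult1e1 was the 1 SULT gene of the 9 measured that was higher by 2-fold or more. Estrogen sulfotransferase, its product, inactivates estrogens. The signal was 21.8 in wild-type and 329 in the Snail-labelled library, a difference of 3.54 (11.6-fold higher). In wild-type it lay close to the array's lowest signal called well above background, 13.8, and with normexp background correction followed by quantile normalization the difference was 1.89. Its probe lies 61.4 kb from the Sult1b1 probe and 20.1 kb from the nearer Sult1d1 probe, genes at -1.08 and -0.05. Sult2a1, which sulfates hydroxysteroids and bile acids, gave 7021 and 15971, a difference of 0.81; its probe also lists Sult2a4.

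**Figure D4:**
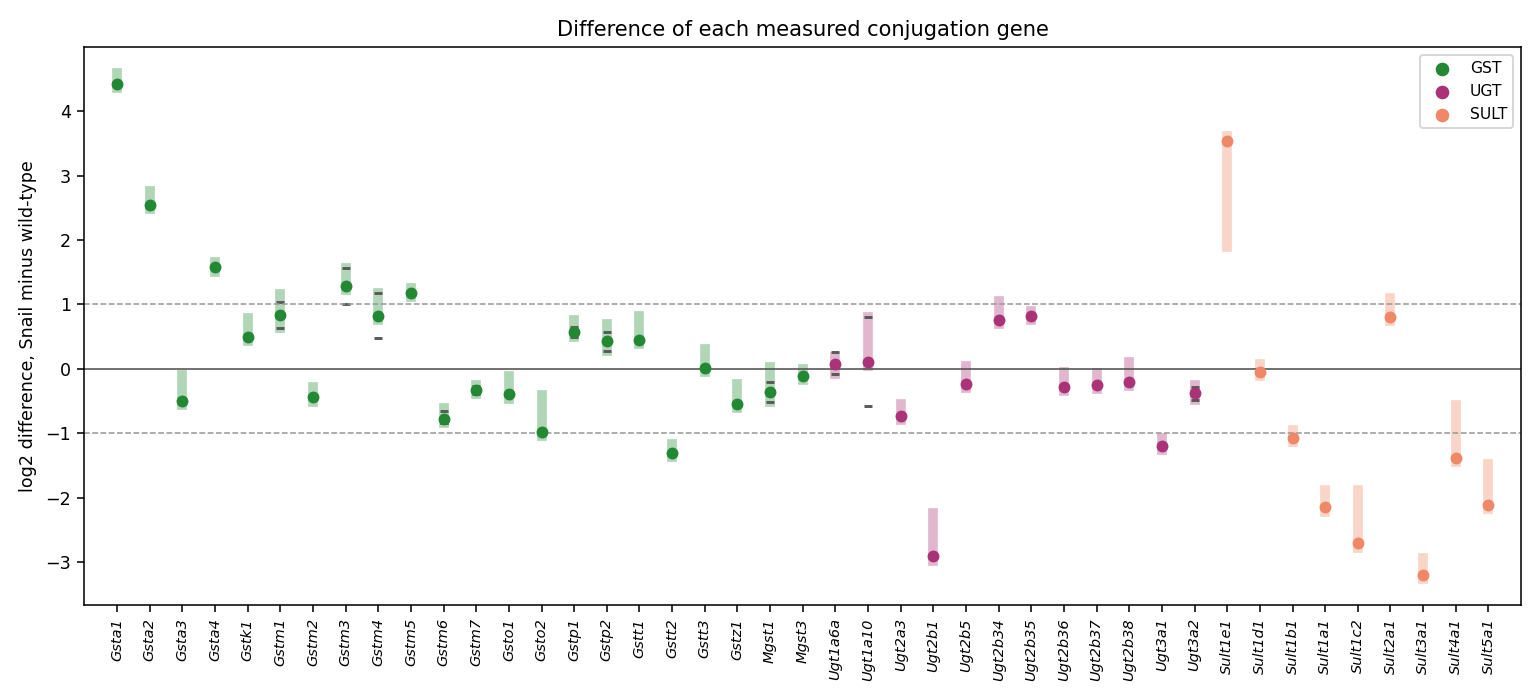
Log2 difference (Snail minus wild-type) of the 43 measured genes by family, with grey ticks for single probes and pale bars for the range over the 10 alternative settings; dashed lines mark 2-fold. Gsta1 at 4.43 and Sult1e1 at 3.54 are the highest and Sult3a1 at -3.20 the lowest; Gstt3, Mgst1, Sult1d1, Ugt1a6a, Ugt2b5 and Ugt2b38 cross 0 between settings.

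A further 7 genes carry a GST or SULT name in RefSeq but an older clone name in the array annotation, and the name rule does not take them. They extend the split among sulfotransferases. Sult3a2, listed as Gm4794, differed by -4.89, with signals of 384 and 16.7. Sult2a8, listed as 2810007J24Rik, gave 10937 and 2317, a difference of -2.62. In the other direction, Sult2a6 gave 1514 and 6556, a difference of 1.74, while its second probe was below background on both arrays (3.69 and 6.22). Sult2a2 was higher on both probes, by 0.78 (12624 and 28076) and 2.31 (2613 and 16845). The 2 Sult2a4 probes, which overlap, disagreed widely at 0.80 (2173 and 4908) and 4.27 (40.6 and 1016), and the Sult2a genes are near copies of one another, so their separate values are uncertain. Gstp3 differed by -1.53, with 366 and 164, and Sult6b2 was below background on both arrays. With these genes named, the SULT family had 4 of 14 measured genes past 2-fold upward and 8 downward, and the median of the GST family fell to 0.01. Of the higher genes, Sult2a2 and Sult2a4 passed 2-fold only as means of their 2 probes, and the brighter probe of each stayed within 2-fold. Over all genes under the array's own names, 3.97% were higher and 6.34% lower.

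Genes that supply the cofactors showed no common direction. The shares to set beside their counts are those of all genes, 3.97% upward and 6.34% downward. In the glutathione list, 1 of 11 measured genes passed 2-fold upward (9.09%) and 3 downward (27.3%), with a median of -0.44. The cysteine-consuming first step, glutamate-cysteine ligase (Gclc), gave 5418 and 13087, a difference of 0.90, and glutathione synthetase (Gss) gave 505 and 1320, a difference of 1.01. On the breakdown side Ggct differed by -2.44 (841 and 202), Ggt6 by -1.39 and Chac1 by -1.04. For UDP-glucuronic acid, 1 of 12 was higher (8.33%) and 2 lower (16.7%), with a median of -0.05. Ugdh, which makes UDP-glucuronic acid from UDP-glucose, was the higher gene, with 4497 and 15780 and a difference of 1.43.

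For PAPS and sulfate, 1 of 16 measured genes was at least 2-fold higher (6.25%) and 3 lower (18.8%), with a median of -0.13. Papss2, a PAPS synthase, gave 19504 and 12074, a difference of -1.07, close to the 2-fold line. The other synthase, Papss1, gave 197 and 228, a difference of -0.17, and is named with its value known. The sulfurtransferase Tst differed by -1.32 and the sulfatase Arsg by -1.13, and the sulfatase Arsa was higher by 1.78. Other conjugation enzymes, for acetylation, methylation and coupling to amino acids, had 0 of 17 higher and 4 (23.5%) lower, Keg1, Gamt, Gm4952 and Gnmt, with a median of -0.55. The 9 measured relatives with a GST fold or of the MAPEG family stayed within 2-fold, between -0.40 and 0.26.

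**Figure D5:**
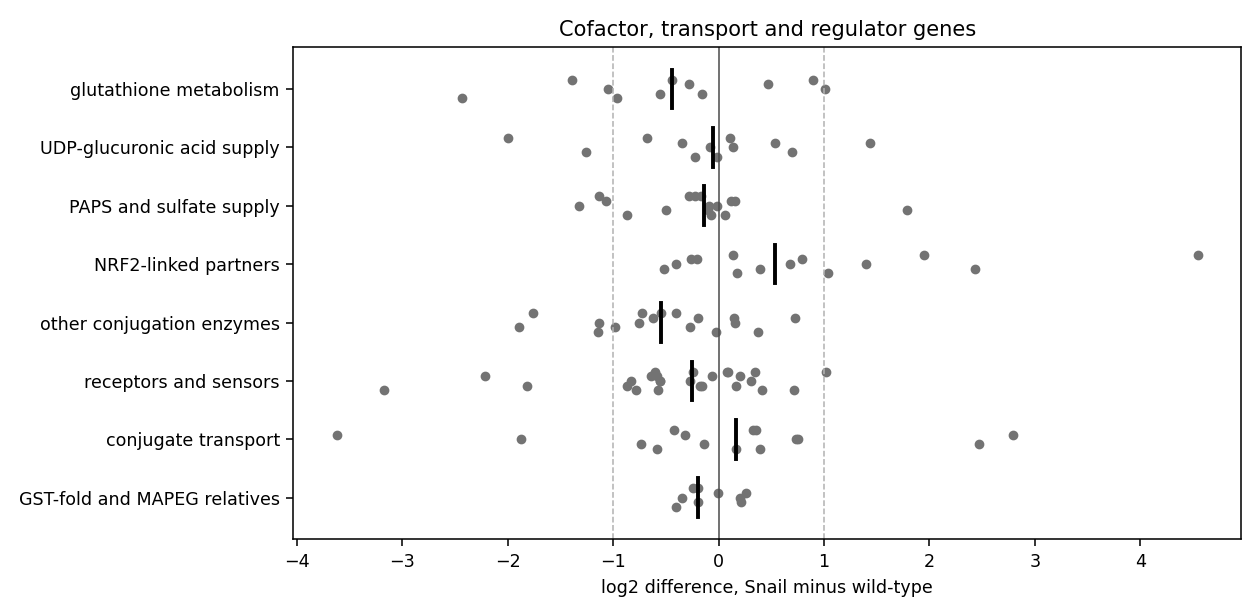
Log2 difference (Snail minus wild-type) of each measured gene in 8 lists of cofactor, transport and regulator genes, with black bars at the list medians and dashed lines at 2-fold. The list of microsomal and NRF2-linked partners has a median of 0.54 with 5 genes past 2-fold higher, and the glutathione list a median of -0.44.

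Reductive and related enzymes, most of them known to share regulation by NRF2 with alpha-class and mu-class GST genes, lay above 0 for 10 of 14 measured genes. Of these 14, 5 were at least 2-fold higher and 0 lower, with a median of 0.54, against the background of 3.97% given above. Cbr3, a carbonyl reductase, had 64.6 and 1963, a difference of 4.55. Nqo1, the quinone reductase, had 164 and 817, a difference of 1.94. The aldehyde oxidases Aox3 and Aox1 differed by 2.43 and 1.40, and Cbr1 by 1.04. The other 9 lay between -0.52 and 0.79; among them, named with their values known, the NRF2 targets Txnrd1 and Srxn1 differed by 0.17 and 0.14. The mRNA of NRF2 itself (Nfe2l2) differed by 0.35, with 1539 and 2541.

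Of 26 receptors and sensors measured, 1 was at least 2-fold higher (3.85%, near the 3.97% of all genes) and 3 lower (11.5%, against 6.34%), with a median of -0.26. The xenobiotic receptor PXR (Nr1i2) was higher by 1.02, with 1187 and 3115, and lay at the 2-fold line. CAR (Nr1i3) differed by -0.64 and Ahr by -0.87. The lower genes were Cux2 at -3.17 (203 and 29.3), Esr1, the estrogen receptor, at -2.22 (144 and 33.2) and Foxa3 at -1.82 (281 and 104). Transporters of conjugates had 2 of 15 higher and 2 lower (13.3% each), with a median of 0.17. The exporters Abcb1a and Abcc5 were higher by 2.80 and 2.47, and Abcb1b was at least 7.12-fold higher. The uptake carrier Slc22a7 differed by -3.62, and Slco1a1 was at least 12.9-fold lower.

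Many Sult, Ugt2b and Gst genes are known to differ between male and female mouse liver, and the labels do not give the sex. Xist, expressed from the inactive X chromosome, was measured on both arrays, with 248 and 358. Ddx3y, Eif2s3y, Kdm5d, Uty and 3 other Y-linked genes were below background on both. Both liver lists of sex-biased genes lay mostly below 0, in 15 of 20 measured female-biased genes and 11 of 12 male-biased genes. Of the female-biased genes 2 (10%) were higher by 2-fold or more and 6 (30%) lower, with a median of -0.54, and of the male-biased genes 0 were higher and 6 (50%) lower, with a median of -1.21. Over all genes the shares were 3.97% and 6.34%. Genes with only a bound went both ways. Cyp3a44, known as female-biased, was at least 187-fold lower. Among male-biased genes 3 passed the background call only in the Snail-labelled library and 2 only in wild-type. Cyp4a12b, Elovl3 and Cyp4a12a were higher, by at least 671-fold, 8.32-fold and 449-fold in that order. Slco1a1 was at least 12.9-fold and Hsd3b5 at least 9.80-fold lower. With the bounds included, the median of the male-biased genes was -0.95. The part of sex, hormones or feeding in the GST, UGT and SULT values was not tested.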

How the data were processed

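Liver RNA of 1 wild-type and 1 Alb-Cre;CAG-floxed neo-Snail library was measured on 1-colour arrays. The authors deposited scanner intensity values made with version 9.5.1.1 of Agilent Feature Extraction (submitters' processing notes); per the file headers, background was subtracted and trends were removed inside each array, with no scaling across arrays. Coordinates are on mm9, per the file headers. A deposited value table of 39429 probes has intensity values whose scaling the sources used here do not state. Its columns are linear, each with a median of 17.3, and each follows its own array (correlation of log2 values 1.00, against 0.976 and 0.977 with the other array).

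The 75th percentile of each array's non-control spots was subtracted from the processed signals on the log2 scale. Of 43020 non-control spots, 287 marked as outliers on either array were left out; none was saturated. Well above background were 50.7% of spots in wild-type and 54.0% in the other library. Spots were averaged per probe, and a gene is the mean of its probes well above background on both arrays. A gene seen on 1 array only has a bound: the bright scaled signal over the higher of the dim array's lowest signal well above background (13.8 in wild-type, 12.8 in the other) and the probe's own signal. Such a fold is written as at least N-fold.

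Probes were matched by accession to RefSeq genes (26051 of 39422 probes, and all 49 genes described). Both arrays came from 1 slide and 1 scan. With 1 array per group the number of arrays limits the precision and no test was run. On simulated arrays with 200 changed genes among 15448, the estimates of 100 genes changed 2-fold had a median error of 0.05 and those of 100 changed 4-fold 0.06 (log2). The simulation held only noise between spots and a constant shift between arrays. It held no difference between animals, so it checks the calculation and not the precision of the data. The genes and lists were chosen with earlier results of these data known. Values are given in full for genes at least 2-fold apart or with a bound and for the extremes of each subfamily; of each other list, at most 6 genes past 2-fold by size and a few fixed regulators are named. Some genes counted in the lists are not reported here by name. Alternatives covered scaling, background correction, the value table, filters, probe choice and naming. Python 3.11.15, pandas 2.3.3, numpy 2.4.6, matplotlib 3.10.9, R 4.3.3 and limma 3.58.1 were used.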

Additional observations from a re-analysis of the deposited data

How the results depend on the processing

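Over 10 alternative settings, 13 of the 16 genes at least 2-fold apart, Mgst2 with its bound included, stayed past 2-fold wherever a value could be had. The exceptions were Sult1b1 (3 settings, down to -0.95), Sult4a1 (2 settings, down to -0.56) and Mgst2 (1 setting, a bound of 0.47). Another 5 genes crossed 2-fold in at least 1 setting: Gstm1, Gstm4, Gsto2, Sult2a1 and Ugt2b34. Of 443 values of single genes, 8 moved by over 1.5-fold and none of the called ones changed sign. Of 330 list counts and medians 53 moved, among them the transporter median, which came to -0.023 with no filter on dim probes.

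With quantile normalization the median of all 43 genes was -0.018, the GST median 0.50 with 2 genes at least 2-fold lower, the UGT median -0.024 with 1 gene higher, and 2 SULT genes were higher. Normexp with quantile normalization gave medians of -0.021 for all 43, 0.50 for GST, -0.0036 for UGT and -0.95 for SULT, with 1 UGT and 2 SULT genes higher; over all genes 324 were higher and 487 lower, against 613 and 979. The authors' value table gave medians of -0.024 for all 43, 0.46 for GST and -0.062 for UGT, with 2 GST genes lower and 2 SULT genes higher. Median scaling gave 2 GST genes lower. Requiring a signal of at least 100 left 262 genes higher and 606 lower of 10345; the GST median was 0.43, and of 5 SULT genes left 0 were higher and 3 lower, with a median of -1.08. No filter on dim probes gave a median of -0.54 over all genes, the one setting that moved it by over 0.1, and -0.75 for SULT. Both medians include genes dim on both arrays, whose difference is fixed there by the arrays' lowest signals well above background. Names through RefSeq gave 2 GST genes lower and a GST median of 0.0084, and 4 SULT genes higher with a median of -1.23. Of these 4, Sult2a2 and Sult2a4 passed 2-fold only as means of 2 probes. Known sources are the smaller number of genes under the stricter filter, the added genes under the RefSeq names and the fixed difference of dim genes without a filter. Other causes were not tested.

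No paired analysis was possible because each group has 1 array and the labels give no replicate numbers. Leaving out a replicate was not possible either. Dim signals limit Sult4a1, Gsto2, Sult1e1 in wild-type and the bounds of Mgst2 and Ugt2a1. Probes shared between near-identical genes limit Gsta1 with Gsta2, the Gstp pair, the Ugt1a genes and the Sult2a genes.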
